A study of Homo sapiens with 10 samples.

Results

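Some HCT-116 cells that live through doxorubicin carry almost no transcript of CDKN1A, the gene of the cell cycle inhibitor p21, and the data described here are the summed transcripts of such cells. HCT-116 is an established human colon cancer line, and doxorubicin (DOX) is an anthracycline that poisons topoisomerase II and breaks DNA. The DOX cells received 200 nM DOX for 24 h and were then left for 6 d without drug, and the untreated cells received none. Each condition has 2 droplet single-cell RNA libraries of the same line, and a further 6 bulk RNA samples were not analysed here. Nothing in the labels says whether the libraries came from separate cultures, so the p-values measure the spread between these libraries, which may be technical. HCT-116 is 1 cell line, and cells that died or detached during the 6 d were not sampled.

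In droplet sequencing each barcode stands for 1 droplet, and each unique molecular identifier (UMI) for 1 captured transcript. A barcode was taken as deep when it had at least 20000 and fewer than 150000 UMIs, fewer than 12000 genes and less than 8% mitochondrial UMIs. A deep barcode was called low CDKN1A when it held at most 1 CDKN1A UMI. Of 23229 barcodes in the 4 libraries, 7465 were deep, and 4266 of these were low CDKN1A. They were 307 and 293 barcodes in DOX replicates 1 and 2, and 2360 and 1306 barcodes in untreated replicates 1 and 2. No barcode sequence was shared between libraries among them. The other deep barcodes, with at least 2 CDKN1A UMIs, numbered 952 and 669 in the DOX libraries and 960 and 618 in the untreated libraries. The barcodes were chosen by their measured CDKN1A UMIs, so the CDKN1A level below is a description and was not tested.

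As background, DNA damage stabilises p53, which switches on CDKN1A, and p21 then holds cyclin-dependent kinases in check. The p53 response also reaches apoptosis genes, DNA repair genes and GDF15, a secreted factor. Type I interferon acts by another route: the complex ISGF3, which holds STAT2 and IRF9, binds the interferon-stimulated response element (ISRE) in promoters of antiviral genes. Its unphosphorylated form, U-ISGF3, keeps a part of these genes on for days after interferon. The question here is which DOX changes, those of interferon genes among them, are found in cells with at most 1 CDKN1A UMI.

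The low CDKN1A barcodes were 24.4% (95% exact binomial interval 22.0 to 26.9%) and 30.5% (27.6 to 33.5%) of the deep barcodes in the DOX libraries, against 71.1% (69.5 to 72.6%) and 67.9% (65.7 to 70.0%) in the untreated libraries. These intervals cover counting error only. A limit of 1 UMI means 50.0 CPM (UMIs of a gene per 1000000 UMIs) in a barcode of 20000 UMIs and 6.67 CPM in one of 150000 UMIs, so it is stricter in deeper barcodes. With every barcode thinned to 20000 UMIs, the shares were 52% and 60% in DOX and 91.1% and 89.7% in untreated. A count of 0 was found in 128 and 122 DOX barcodes and in 1613 and 843 untreated barcodes. Just inside the limit, 179 and 171 DOX barcodes and 747 and 463 untreated barcodes held 1 CDKN1A UMI. Just outside it, 178 and 121 DOX barcodes and 351 and 192 untreated barcodes held 2 CDKN1A UMIs. The summed CDKN1A level of the low barcodes was 9.14 and 7.81 CPM in DOX, against 4.50 and 4.46 CPM in untreated, and that of the other deep barcodes was 339 and 263 CPM against 72.8 and 71.9 CPM. So the DOX barcodes of the low class kept a higher CDKN1A level than the untreated ones, without overlap, while both stood far under the rest.

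**Figure D1:**
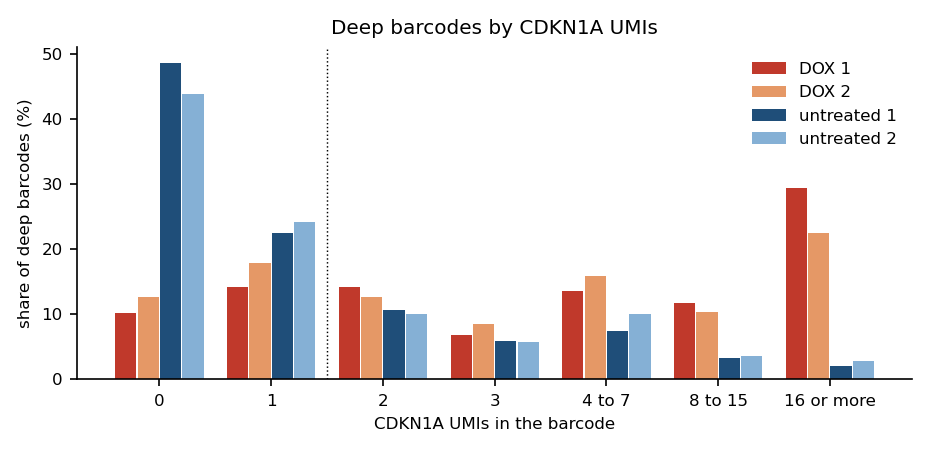
Share of deep barcodes (%) by the number of CDKN1A UMIs in the barcode, with 1 bar per library and a dotted line at the limit of the low class. The 2 classes left of the line hold 24.4% and 30.5% of the DOX barcodes and 71.1% and 67.9% of the untreated barcodes.

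Depth within the class was close between the conditions. The median was 60718 and 72180 UMIs in the DOX barcodes and 66866.5 and 73921 UMIs in the untreated barcodes, with 8302 and 8739 genes against 8431.5 and 8824.5 genes. The median mitochondrial share was 5.52% and 5.64% in DOX, against 5.15% and 4.92% in untreated. Summed over the class, the libraries held 19573975 and 21893353 UMIs in DOX and 166175380 and 103869697 UMIs in untreated. Of the 6 colon line markers EPCAM, KRT8, KRT18, KRT19, CDH1 and CDX2, all were detected in every library, and CDH1, which encodes E-cadherin, passed the test, at 30.3 and 36.6 CPM in DOX against 17.5 and 20.1 CPM in untreated. Markers of other cell types summed to 8.0 and 8.3 CPM in DOX and to 6.5 and 7.2 CPM in untreated. PTPRC, the leukocyte gene CD45, had 0 and 0 UMIs in DOX and 3 and 2 UMIs in untreated. Of the 4 genes tested on that list 1 rose, ACTA2, a smooth muscle actin, at 2.66 and 1.23 CPM in DOX against 0.963 and 0.905 CPM in untreated, a log2 change of 0.97 ± 0.30 with an edgeR adjusted p of 0.031, which was lost in 6 of 17 alternatives, among them those without DOX replicate 1 (log2 0.28) and without either untreated library.

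A promoter element shared by many interferon genes comes before their values. The core of the ISRE, written as TTTC, any 2 bases and TTTC, was searched on both strands, with overlapping matches counted, in RefSeq promoter windows on GRCh38.p14 that run from 250 bases before to 50 after each annotated start. The published list of U-ISGF3-induced genes used by the study has 29 members, of which 23 have such a window, and 17 of these (73.9%) hold a match. Among the other type I interferon-stimulated genes listed here, 29 of 42 have a window and 17 (58.6%) hold a match. Of all 27305 symbols with a window, 1195 (4.38%) hold one. A match is a description of letters and does not show a bound site. DDX58, SP110 and OAS1, which rose by 2.43, 2.01 and 7.81 on the log2 scale in low CDKN1A barcodes, have windows without a match. The windows below were picked from genes that rose and hold a match. TMEM140, which holds the element and did not pass the test in low CDKN1A barcodes, was added. Each window is written on the strand of its gene, with the match in capitals.
IFI6 (chr1:27672288-27672317, minus strand): ggagagagggGAAAATGAAActgcagagtg
IFI27 (chr14:94110618-94110647, plus strand): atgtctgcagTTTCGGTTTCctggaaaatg
IFIT1 (chr10:89392497-89392526, plus strand): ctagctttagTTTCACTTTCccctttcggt
ISG15 (chr1:1013380-1013409, plus strand): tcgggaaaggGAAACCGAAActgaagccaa
IFIH1 (chr2:162318686-162318715, minus strand): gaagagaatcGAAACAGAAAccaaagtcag
SAMD9 (chr7:93118096-93118125, minus strand): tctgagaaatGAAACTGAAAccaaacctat
PARP9 (chr3:122564322-122564351, minus strand): gggcgcaaagTTTCAGTTTCgcttccctgg
DTX3L (chr3:122564322-122564351, plus strand): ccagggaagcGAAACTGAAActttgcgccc
TMEM140 (chr7:135148009-135148038, plus strand): gttaggaaacGAAAGTGAAAtcagctgata
PARP9 and DTX3L are neighbours that read away from 1 stretch of DNA, and their windows are the same 30 bases on opposite strands.

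STAT2 and IRF9, which belong to ISGF3, were higher in DOX cells with low CDKN1A. STAT2 (hg19 chr12:56735381-56753987) had 12.1 and 13.9 CPM in DOX and 6.32 and 7.14 CPM in untreated, a log2 fold change of 0.89 ± 0.11 (standard error, 2 libraries against 2) with an edgeR adjusted p of 6.7e-05. IRF9 (chr14:24630443-24637252), which gives the complex its DNA specificity, had 4.85 and 6.21 CPM in DOX and 0.885 and 0.963 CPM in untreated, a log2 change of 2.52 ± 0.19. In neither gene did the libraries of the conditions overlap, which was also so, with DOX higher, for 38.7% of the 18208 genes tested in these barcodes.

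Of the other JAK/STAT genes, STAT6, which serves interleukin signalling, had 15.5 and 14.7 CPM in DOX and 10.3 and 11.2 CPM in untreated, and changed by 0.43 ± 0.09 on the log2 scale. Over all genes tested 11.8% rose and 11.1% fell at an edgeR adjusted p under 0.05, and the median log2 change was 0.03. These are 2154 and 2021 genes, and with library totals in place of the TMM scaling they were 2908 and 1278. STAT3 and STAT5B rose by 0.25 and 0.30 on the log2 scale, while the kinase genes JAK1, JAK2, JAK3 and TYK2 did not pass the test, with log2 values of 0.05, 0.22, 0.53 and -0.09.

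Of the 29 U-ISGF3-induced genes, 25 passed the filter on low counts, 24 rose, 0 fell, and the median log2 change was 2.62. A gene near 0 in untreated cells can pass the filter through the DOX libraries alone, and 6 of the 25 did. Of the 19 that the untreated libraries alone would have passed, 18 rose, with a median log2 change of 2.36. TMEM140, with 1.84 and 1.92 CPM in DOX and 1.19 and 1.53 CPM in untreated, was the member that did not. The 4 members that were not tested had few transcripts: XAF1 had 6 and 2 UMIs in DOX and 0 and 1 UMIs in untreated, IFITM1 had 2 and 2 against 1 and 0, RARRES3 had 3 and 0 against 2 and 0, and RTP4 had 0 and 1 against 0 and 0.

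The most abundant member was ISG15, a ubiquitin-like protein that is joined to others during antiviral defence. It had 701 and 619 CPM in DOX and 125 and 120 CPM in untreated, a log2 change of 2.36 ± 0.09. IFI27, a small mitochondrial protein, had 110 and 93.9 CPM in DOX and 1.637 and 1.502 CPM in untreated, which is a 61.4-fold difference. IFIT1, which binds foreign RNA caps, had 52.3 and 37.96 CPM in DOX and 1.20 and 0.866 CPM in untreated, a log2 change of 5.34 ± 0.18. In all 3 genes the DOX libraries stood far above the untreated libraries.

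Among genes of the OAS family, OAS1 had 254 and 196 UMIs in DOX and 4 and 8 UMIs in the far larger untreated sums. These were 13.0 and 8.95 CPM against 0.0241 and 0.0770 CPM. OAS3 had 42.3 and 37.6 CPM in DOX and 8.86 and 9.42 CPM in untreated, a log2 change of 2.06 ± 0.09. OASL had 11.9 and 6.53 CPM against 0.885 and 0.703 CPM, and OAS2 had 6 and 5 UMIs against 11 and 2 UMIs. All 4 genes rose, with OAS2 the least certain at an edgeR adjusted p of 0.021 and at 0.15 without DOX replicate 1.

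Sensors of foreign RNA rose as well. DDX58, which encodes RIG-I, had 55.9 and 44.5 CPM in DOX and 8.82 and 8.96 CPM in untreated, and IFIH1, which encodes MDA5, had 23.6 and 24.1 CPM against 3.01 and 3.04 CPM. Their log2 changes were 2.43 ± 0.10 and 2.91 ± 0.10. TLR3, the endosomal sensor of double-stranded RNA, had 2.04 and 2.33 CPM against 0.445 and 0.424 CPM. IRF7, a factor that amplifies interferon, had 13.5 and 13.2 CPM in DOX and 2.06 and 2.08 CPM in untreated. BST2, the membrane tether of budding virus, had 14.4 and 10.8 CPM against 0.728 and 0.664 CPM, a log2 change of 4.10 ± 0.18.

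The rest of the list filled the range between. The HERC family ligases HERC5 and HERC6 rose by 1.26 ± 0.10 and 2.17 ± 0.14 on the log2 scale, DDX60 by 1.44 ± 0.09 and PLSCR1 by 1.47 ± 0.08. IFI35, IFIT3, EPSTI1 and BATF2 changed by 1.62, 3.05, 3.97 and 2.12. MX1 and MX2, dynamin-like antiviral proteins, stayed under 1 CPM. MX1 had 0.920 and 0.914 CPM in DOX and 0.132 and 0.144 CPM in untreated. IFI44 had 145 and 102 UMIs in DOX and 11 and 1 UMIs in untreated. IFI44L had 13 and 6 UMIs in DOX and 0 and 0 UMIs in untreated, so it was at least 41.2-fold higher when the untreated sum is set to the limit of 3 UMIs over both libraries.

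**Figure D2:**
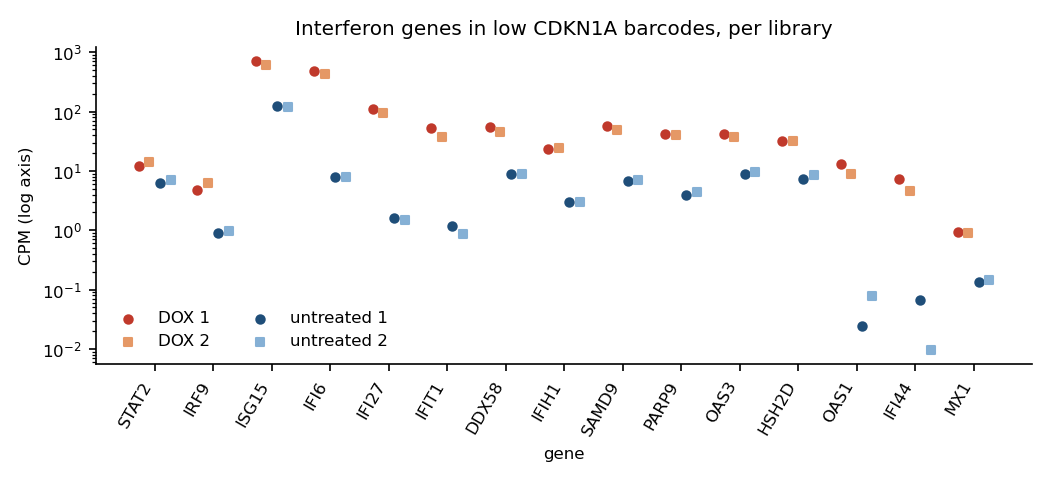
Level of interferon genes in low CDKN1A barcodes in CPM on a log axis, with 1 point per library. For each gene the DOX libraries lie above the untreated libraries, for example at 488 and 429 CPM against 7.829 and 8.0004 CPM for IFI6.

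Interferon genes outside that list followed. Of 39 tested genes among the other type I interferon-stimulated genes, 37 rose and 0 fell, with a median log2 change of 1.20. Of the 35 that the untreated libraries alone would have passed, 33 rose, with a median of 1.17. IFI6, a stabiliser of mitochondria under interferon, had 488 and 429 CPM in DOX and 7.829 and 8.0004 CPM in untreated, a log2 change of 5.79 ± 0.09 with an edgeR adjusted p of 5.0e-14. PARP9, which pairs with the ligase DTX3L, had 42.0 and 39.9 CPM against 3.89 and 4.33 CPM, and DTX3L had 27.6 and 21.7 CPM against 4.18 and 5.13 CPM. SAMD9, an antiviral restriction factor, had 57.0 and 49.5 CPM against 6.75 and 6.91 CPM, and SP110, a nuclear body protein, had 43.4 and 37.5 CPM against 9.70 and 9.41 CPM. HSH2D (chr19:16244838-16269386), an adaptor with an SH2 domain that the study followed up, had 31.4 and 31.5 CPM in DOX and 7.26 and 8.56 CPM in untreated, a log2 change of 1.93 ± 0.09. SAMD9L was not tested and had 8 and 3 UMIs in DOX against 0 and 0 in untreated, at least 23.9-fold higher by the same limit.

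Antigen presentation by MHC class I, which interferon raises, changed less. In its list 15 of 20 tested genes rose and 0 fell, where 11.8% of all genes rose, with a median log2 change of 0.56. PSMB9, an immunoproteasome subunit, had 20.03 and 16.35 CPM in DOX and 3.59 and 3.39 CPM in untreated. HLA-B had 193 and 171 CPM against 104 and 103 CPM, a log2 change of 0.75 ± 0.08. PSME1, an activator of the proteasome, had 136 and 124 CPM against 77.3 and 79.4 CPM.

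Of 17 genes typical of interferon gamma, 8 had too few UMIs to be tested. CXCL9 had 0 UMIs in all 4 libraries, CXCL10 had 1 and 1 UMIs in DOX and 0 and 0 in untreated, and IDO1 had 0 and 0 UMIs in DOX and 4 and 3 in untreated. Of the 9 tested genes on that list 3 rose, namely IRF1, SOCS1 and GBP3, and WARS fell by 0.27 ± 0.08 on the log2 scale, though not without DOX replicate 1 or untreated replicate 2. SOCS1, which damps JAK signalling, had 5.82 and 5.53 CPM in DOX and 3.52 and 3.30 CPM in untreated, and it did not pass the test in 4 of the 17 alternatives.

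Few transcripts of interferons were found. IFNE, an epithelial interferon, had 0 and 3 UMIs in DOX and 20 and 11 UMIs in the larger untreated sums, and was not tested. IFNA1, IFNB1, IFNG and IFNL2 had 0 UMIs in all 4 libraries, which allows up to 0.0723 CPM in the DOX cells and 0.0111 CPM in the untreated cells of this class. IFNL1 had 14 UMIs in DOX replicate 1, all of them in 1 barcode, and 1 UMI in DOX replicate 2, against 0 and 0 in untreated. The receptor genes IFNAR1 and IFNAR2 did not pass the test, with log2 values of -0.09 and 0.10.

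The summed U-ISGF3 difference was found in most barcodes, while some single genes, such as OAS1 and BST2, were seen in a minority of them. After thinning to 20000 UMIs, the U-ISGF3 list had a median of 22 and 19 UMIs per low CDKN1A barcode in DOX, with 5th to 95th percentiles of 6 to 65 and 6 to 53.6, against medians of 4.5 and 4 in untreated, with 1 to 10 in each. The untreated 95th percentile of 10 UMIs was exceeded by 82.7% (95% exact binomial interval 78.0 to 86.8%) and 80.5% (75.5 to 84.9%) of the DOX barcodes, and by 3.35% and 3.83% of the untreated barcodes. ISG15 weighs most in this sum. Over the class it gave 701 and 619 of the list's 1367 and 1183 CPM in DOX. In untreated it gave 125 and 120 of 243 and 245 CPM. The barcode with the most UMIs of ISG15 held 1.99% and 2.14% of that gene's UMIs in the DOX libraries. IFI27 was found in 59.9% and 50.8% of the DOX barcodes thinned to the same depth and in 3.1% and 3.0% of the untreated ones. With all UMIs kept, OAS1 was found in 40.4% and 33.4% of the DOX barcodes and in 0.17% and 0.306% of the untreated ones, and BST2 in 29.3% and 28.3% against 3.98% and 4.06%. The shares of IFI27 were then 80.1% and 77.1% in DOX and 10.4% and 10.2% in untreated.

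**Figure D3:**
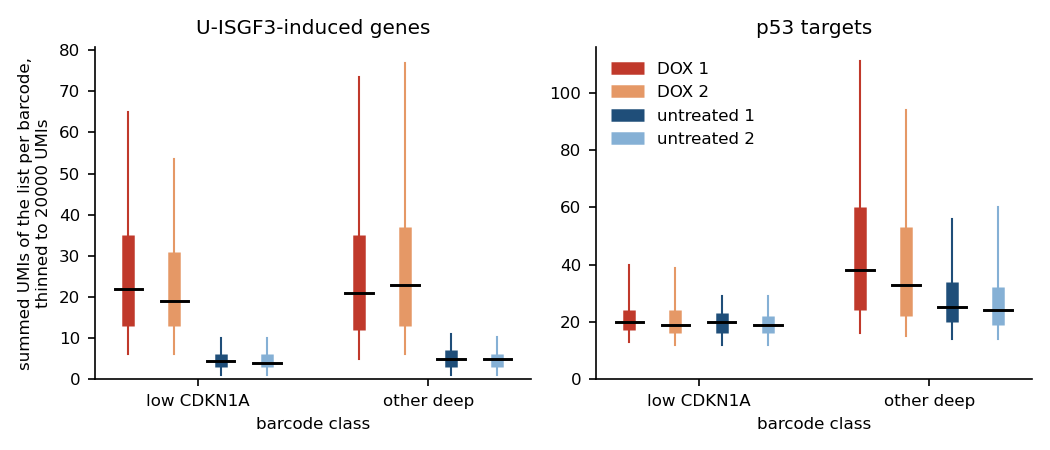
Summed UMIs per barcode, thinned to 20000 UMIs, of the U-ISGF3 list (left) and of p53 targets (right) for low CDKN1A and other deep barcodes in each library. The black line is the median over barcodes, the thick bar the 25th to 75th and the thin bar the 5th to 95th percentile. In low CDKN1A barcodes the U-ISGF3 medians are 22 and 19 in DOX against 4.5 and 4 in untreated, while those of p53 targets are 20 and 19 in both conditions.

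RNA that floats free in the suspension is captured too, and barcodes with few UMIs can hold it. The low CDKN1A barcodes had 1367 and 1183 CPM of the U-ISGF3 list in DOX and 243 and 245 CPM in untreated. Barcodes under 2000 UMIs had 2486 and 2455 CPM of it in the DOX libraries, with 18230 and 17385 UMIs, against 320 and 356 CPM in the untreated libraries, where they held 65 and 36 UMIs of the list. ISG15 alone had 1628 and 1617 CPM in the shallow DOX barcodes. Of the tested interferon genes, 8 of 25 on the U-ISGF3 list and 21 of 39 on the other list were higher in low CDKN1A barcodes than in shallow barcodes in both DOX libraries. The remaining 17 and 18 were not higher in both. The study kept DOX barcodes with few genes as cells, and proposes that their cluster contains senescent and possibly other aberrant cells. Whether the shallow barcodes here held cells or free RNA was not tested. The part of free RNA in any of these genes was not tested either.

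The comparison with the remaining deep barcodes asks whether these changes were smaller in barcodes with at most 1 CDKN1A UMI. Of the 2154 genes that rose in low CDKN1A barcodes, 1744 (81.0%) had no called difference in their DOX change between the classes, and of the 2021 that fell, 1356 (67.1%) had none. The difference is the log2 change in low CDKN1A barcodes minus that in the other deep barcodes of the same libraries. It comes from 1 joint fit with its own TMM scaling, so it departs from the 2 separately fitted changes subtracted. For ISG15 the separate changes were 2.36 and 2.28. Over 20053 genes the difference was positive at an edgeR adjusted p under 0.05 in 7.63% and negative in 8.23%. These are 1530 and 1651 genes, and with DESeq2 size factors in the edgeR fit they were 2148 and 1343. A difference that misses the threshold does not show that the changes were equal, so intervals are given. For ISG15 the difference was 0.01 (95% interval -0.16 to 0.17), with -0.13 without DOX replicate 1 and 0.14 without DOX replicate 2, both past the threshold. It was 0.07 (-0.21 to 0.35) for IFI6, for IFI27 -0.36 (-0.76 to 0.05) and for HSH2D 0.25 (0.07 to 0.43, edgeR adjusted p = 0.068).

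On the U-ISGF3 list the median difference was 0.01, and between -0.21 and 0.10 over the alternatives. No difference was called among 27 tested genes in either direction. This count depends on the DOX libraries: without DOX replicate 1 the difference was called negative in 4 genes, and without DOX replicate 2 it was called positive in 6. Among the other type I interferon-stimulated genes 0 of 42 differences were positive and 6 were negative, among them LGALS3BP, a secreted glycoprotein, at -0.63. On the MHC class I list 1 of 20 was positive and 5 were negative, with HLA-B at -0.45, and without either untreated library 2 were negative. Across classes of CDKN1A count the U-ISGF3 sum lay between 1121 and 1609 CPM in DOX barcodes and between 241 and 315 CPM in untreated barcodes. The highest sums of both conditions were in barcodes with 16 or more CDKN1A UMIs.

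**Figure D4:**
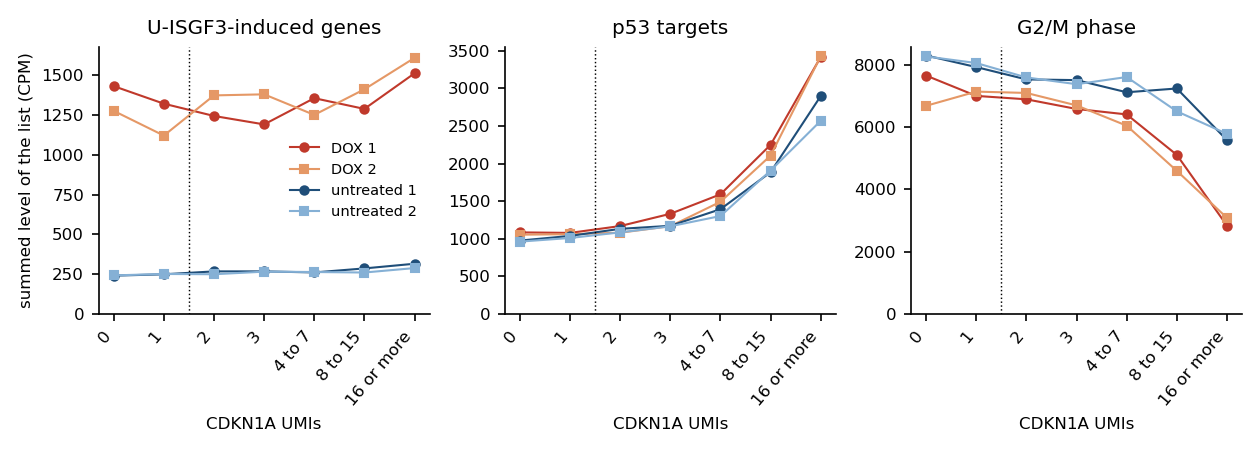
Summed level in CPM of the U-ISGF3 list, p53 targets and G2/M genes against the number of CDKN1A UMIs per barcode, 1 line per library, with a dotted line at the limit of the low class. The U-ISGF3 lines of DOX (1121 to 1609 CPM) stay apart from those of untreated (241 to 315 CPM), while the p53 lines of both conditions climb with CDKN1A.

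p53 targets changed less in low CDKN1A barcodes. The choice of barcodes bears on this, since CDKN1A is a p53 target itself. Of 39 tested genes 16 rose and 2 fell in low CDKN1A barcodes, with a median log2 change of 0.18, and without 1 library 8 or 9 rose. There were 32 higher and 1 lower of 40 in the other deep barcodes, where 24.3% of all genes rose, against 11.8% in low CDKN1A barcodes. The summed level of the list was 1080 and 1058 CPM in DOX and 996 and 979 CPM in untreated, whereas the other deep barcodes had 2424 and 2191 CPM in DOX and 1439 and 1398 CPM in untreated. The difference between the classes was called negative in 26 of 40 genes and positive in 0. Without untreated replicate 1 or 2 it was negative in 14 and 16 genes.

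Single p53 targets still moved in cells with low CDKN1A. GDF15 had 45.47 and 38.05 CPM in DOX and 14.3 and 11.1 CPM in untreated, a log2 change of 1.64 ± 0.13, beside 373 and 299 CPM in DOX and 99.2 and 74.4 CPM in untreated in the other deep barcodes. Its difference of -0.25 turned positive under 3 of the alternatives. BBC3, which encodes the death protein PUMA, had 10.98 and 11.83 CPM against 5.77 and 5.30 CPM, a log2 change of 0.97 ± 0.11, and the difference between the classes was -0.50. TP53INP1, a stress protein, had 2.35 and 2.92 CPM against 1.12 and 1.06 CPM, a change of 1.21 ± 0.21, and its difference was -1.49. The 2 members that fell were AEN, a nuclease, by 0.37 and TRIAP1, a mitochondrial chaperone, by 0.46 on the log2 scale.

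Secreted factors of senescence (SASP) moved less than in the other barcodes. In low CDKN1A barcodes 4 of 18 tested genes rose and 0 fell, where 11.8% of all genes rose. The 4 were IGFBP3, IGFBP6, PLAUR and CXCL1. In the other deep barcodes 16 of 21 rose and 1 fell, where 24.3% of all genes rose. The median log2 changes of the list were 0.21 and 0.56. The difference between the classes was negative in 9 of 21 genes and positive in 1, and without either untreated library it was negative in 4. The count of 4 that rose was 2 without DOX replicate 1. IGFBP6 had 73.7 and 65.7 CPM in DOX and 43.8 and 40.9 CPM in untreated, a log2 change of 0.65 ± 0.09, and the other deep barcodes had 175 and 160 CPM against 50.7 and 47.7 CPM. Its difference between the classes was -1.06 (95% interval -1.18 to -0.94). The classical factors IL6, CCL2 and MMP3 had at most 2 UMIs in any library of this class. Of 14 tested feedback genes of NF-kB 3 rose, 1 fell and 10 did neither in low CDKN1A barcodes, with a median log2 change of 0.25. The largest rise on that list was BIRC3, with 4.24 and 4.61 CPM in DOX and 1.16 and 1.18 CPM in untreated. Its log2 change was 1.86 ± 0.18, and its difference between the classes was -1.52.

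Cell cycle genes fell in both classes, and less in low CDKN1A barcodes. Of 41 S phase genes 28 fell and 0 rose, with a median log2 change of -0.29, and of 54 G2/M genes 30 fell and 0 rose, with a median of -0.25. Over all genes tested in low CDKN1A barcodes 11.1% fell. In the other deep barcodes 41 of 41 and 54 of 54 fell, with medians of -0.78 and -0.76, where 24.1% of all genes fell. Without DOX replicate 1 the falls in low CDKN1A barcodes numbered 8 and 19, and without DOX replicate 2 they numbered 14 and 7. The difference was called positive in 40 of 41 and in 48 of 54 genes, in 27 and 32 without untreated replicate 1, and in 32 and 25 without untreated replicate 2.

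RRM2, a subunit of ribonucleotide reductase, had 139 and 153 CPM in DOX and 208 and 201 CPM in untreated, a log2 change of -0.55 ± 0.08. CDC20, an activator of the anaphase-promoting complex, had 226 and 211 CPM against 328 and 310 CPM, a log2 change of -0.61 ± 0.08. PCNA, the sliding clamp of replication, had 171 and 171 CPM against 221 and 207 CPM, and TOP2A, the topoisomerase that DOX targets, had 159 and 150 CPM against 185 and 213 CPM. BIRC5, which encodes survivin, had 204 and 210 CPM against 233 and 248 CPM, and without DOX replicate 1 or 2 it did not pass the test.

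Some proliferation genes did not pass the test. MKI67 had 252 and 245 CPM in DOX and 260 and 299 CPM in untreated, with an edgeR adjusted p of 0.051, and it passed in 9 of 17 alternatives. LMNB1, the lamin that is lost in senescence, had 88.5 and 94.6 CPM in DOX and 97.7 and 103 CPM in untreated. Its edgeR adjusted p was 0.071, and it passed as lower in 6 of 17 alternatives. In the other deep barcodes LMNB1 had 52.0 and 60.1 CPM in DOX and 88.4 and 90.8 CPM in untreated. Its DOX change differed by 0.54 between the classes (95% interval 0.41 to 0.66). ANAPC1, a scaffold of the anaphase-promoting complex, had 52.5 and 52.9 CPM in DOX and 52.6 and 56.9 CPM in untreated.

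The call of phase moved with these results. By a score of S and G2/M genes, 9.12% and 9.56% of the low CDKN1A barcodes were called G1 in DOX and 1.31% and 0.842% in untreated, beside 44.4% and 39.2% in DOX and 8.12% and 7.61% in untreated in the other deep barcodes. With barcodes drawn so that every library had the same shares of G1, S and G2/M calls, 18 of 41 S phase genes and 6 of 54 G2/M genes fell in low CDKN1A barcodes. No difference between the classes was then called in either list, with medians of -0.04 and -0.02, nor among 39 tested p53 targets. The same draw kept 21 of 22 tested U-ISGF3 genes and 34 of 38 tested other interferon-stimulated genes higher in DOX. The phase calls use cell cycle genes, so part of this follows from how barcodes were drawn. Drawing fewer barcodes also leaves fewer calls: over all genes tested, 10 differences were then positive and 46 negative.

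**Figure D5:**
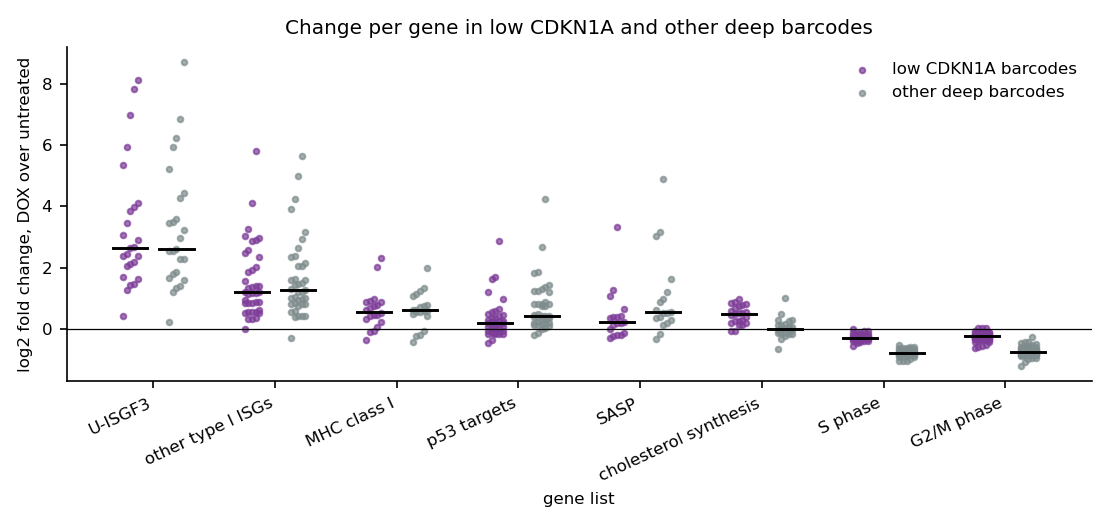
Log2 fold change of DOX over untreated for each gene tested in both classes, by gene list, in low CDKN1A barcodes (purple) and in the other deep barcodes (grey), with the median as a black line. U-ISGF3 genes reach from 0.41 to 8.11 in low CDKN1A barcodes, p53 targets and SASP genes lie lower in low CDKN1A barcodes, and genes of cholesterol synthesis, S phase and G2/M lie higher in them.

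Cholesterol synthesis was a list on which DOX cells with low CDKN1A changed more than the others. Of 23 genes 15 rose and 0 fell, with a median log2 change of 0.47, against 6 higher and 3 lower with a median of -0.02 in the other deep barcodes. Over all genes tested, 11.8% rose in low CDKN1A barcodes, 24.3% rose and 24.1% fell in the others, and 7.63% had a positive difference. The difference was called positive in 15 of 23, and in fewer without untreated replicate 1 or 2. With equal phase shares it was called in 0 of the list, and in only 10 of all genes tested. The median difference of the list was 0.34, and between 0.14 and 0.54 over the alternatives. HMGCS1, which starts the mevalonate pathway, had 58.9 and 68.8 CPM in DOX and 30.8 and 30.9 CPM in untreated, a log2 change of 0.99 ± 0.08. FDFT1, the squalene synthase, had 120 and 115 CPM against 65.0 and 60.5 CPM, and SQLE, the squalene epoxidase, had 135 and 123 CPM against 67.5 and 77.2 CPM. INSIG1 (chr7:155089486-155101945), which holds the sterol sensor in the endoplasmic reticulum, had 33.2 and 31.9 CPM in DOX and 19.3 and 19.3 CPM in untreated, whereas the other deep barcodes had 20.7 and 24.8 CPM against 25.7 and 23.4 CPM.

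Among single genes with a mean of at least 20 CPM, 9 of the 10 largest rises were interferon genes, namely IFI27, IFI6, IFIT1, PARP9, SAMD9, DDX58, ISG15, OAS3 and SP110. The largest falls were of other kinds. BCYRN1, a noncoding RNA of Alu origin, had 293 and 266 CPM in DOX and 542 and 626 CPM in untreated, a log2 change of -1.12 ± 0.09. F3, which encodes tissue factor, had 24.6 and 25.4 CPM against 54.0 and 47.3 CPM. The noncoding RNA SNHG9 had 111 and 107 CPM against 201 and 241 CPM. NR2F2, an orphan nuclear receptor, had 115 and 113 CPM against 209 and 222 CPM, and BMP4, a growth factor, had 47.8 and 54.2 CPM against 89.8 and 94.8 CPM. AXL, a receptor kinase, and COL12A1, a collagen, fell by 0.91 and 0.94 on the log2 scale, and AGPAT9, an acyltransferase, fell by 1.00.

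CPA4, a carboxypeptidase (chr7:129932974-129964020), moved in opposite directions in the classes. In low CDKN1A barcodes it had 29.7 and 24.7 CPM in DOX and 55.7 and 50.2 CPM in untreated, and in the other deep barcodes 172 and 127 CPM in DOX and 56.8 and 56.7 CPM in untreated. The difference was -2.36 (95% interval -2.54 to -2.19). FTH1, the ferritin heavy chain, did so too, with 3554 and 3245 CPM in DOX against 5747 and 4993 CPM in untreated in low CDKN1A barcodes, and 9876 and 8256 CPM against 6321 and 5670 CPM in the others. CCND1, which encodes cyclin D1, fell in low CDKN1A barcodes, with 648 and 600 CPM in DOX against 843 and 859 CPM in untreated. In the others its log2 value was 0.08 at an edgeR adjusted p of 0.44.

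The nuclear RNA NEAT1, which p53 induces, had 290 and 269 CPM in DOX and 115 and 118 CPM in untreated in low CDKN1A barcodes, a log2 change of 1.20 ± 0.08. MALAT1, another RNA kept in the nucleus, had 6523 and 6160 CPM against 4707 and 4923 CPM, and did not pass without DOX replicate 1 or 2. These RNAs stay behind when cytoplasm leaks, and their part in the other changes was not tested. Of 23 genes of colon epithelial differentiation 10 were tested, and 5 rose, 1 fell and 4 did neither, where 11.8% of all genes rose. Among those that rose, the tight junction gene CLDN4 had 108 and 97.8 CPM in DOX and 60.02 and 55.57 CPM in untreated. CEACAM1, an adhesion molecule that interferon raises, had 2.71 and 1.46 CPM against 0.325 and 0.462 CPM.

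KRTAP2-3 and PPP2R3A passed the test through 1 library. KRTAP2-3, a keratin-associated gene, had 60.44 and 11.97 CPM in DOX and 10.3 and 8.19 CPM in untreated, and 1 barcode of DOX replicate 1 held 969 of the 1183 UMIs. PPP2R3A, a regulatory subunit of phosphatase 2A, had 56.1 and 24.2 CPM in DOX and 17.2 and 19.6 CPM in untreated, and 1 barcode of DOX replicate 1 held 694 of 1098 UMIs. Without its highest barcode that library had 10.95 CPM of KRTAP2-3 and 20.7 CPM of PPP2R3A. Without DOX replicate 1 their log2 values were 0.25 and 0.29, and neither passed the test.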

How the data were processed

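The 4 libraries were droplet single-cell RNA libraries of HCT-116. According to the study's methods and the file headers, the authors aligned reads to hg19 with Cell Ranger 7.2.0, forced 8000 cells in the DOX libraries and deposited counts, that is UMIs per gene and barcode with no normalization. The submitters' processing notes also name bedtools 2.25, SAMtools 1.2 and, beside CASAVA 1.8.2, Cell Ranger 7.0.0. Whole libraries held 159897846 and 170495465 UMIs in DOX and 317489299 and 209547139 UMIs in untreated. The deposited counts of the chosen barcodes were summed per library, since barcodes are not replicates, and CPM are parts of all UMIs of that sum.

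DOX and untreated were compared with edgeR 4.0.16 (quasi-likelihood test, TMM scaling, filterByExpr, Benjamini-Hochberg adjustment at 0.05, 2 libraries against 2). An exact permutation test of 2 against 2 could not pass that threshold. The difference between classes was an interaction term over 8 sums with the library as a block. TMM moved DOX over untreated by -0.06 on the log2 scale. Alternatives were other scalings, no filter, DESeq2 1.42.0, other CDKN1A, depth and mitochondrial limits, thinning, equal phase shares, removal of the 5% of barcodes with the highest doublet scores, a replicate block and leaving out each library. A doublet caller marked 6 and 8 deep barcodes in DOX and 0 and 7 in untreated, too few to be used as a call, so doublets were kept. Python 3.11.15, scanpy 1.11.5 and R 4.3.3 were used, and the fits were tested on simulated data.

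The members, gene lists and tests were chosen with earlier results of these data known. Genes named were those the study names for its single-cell results, the U-ISGF3 list, the 10 largest rises and 10 largest falls with a mean of at least 20 CPM and no overlap of the groups, from each list the 3 genes of lowest adjusted p, and the 5 largest positive and 5 largest negative differences between classes. Not all are described: 1 of the largest falls and some genes picked from the lists were left out. Some lists have no count above. In low CDKN1A barcodes 3 of 14 tested BCL2 family genes rose and 3 fell. Of anthracycline targets, pumps and reductases 3 of 17 rose and 3 fell. Of integrated stress response genes 3 of 18 rose and 3 fell. Of Wnt and stem cell genes 5 of 13 rose and 0 fell. Of ribosomal protein genes 3 of 83 rose and 2 fell. Over all genes 11.8% rose and 11.1% fell. The results of 1 further gene are not reported here. Other genes are named to spell out a count or a level and were chosen after their values were seen. UHRF1, CASP8AP2 and PECAM1 of the lists were not matched. Reads from near-identical or overlapping genes may be split by the counting. Promoter sequences are from RefSeq on GRCh38.p14 and gene coordinates from the hg19 annotation used here.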

Additional observations from a re-analysis of the deposited data

Results flagged for a closer look

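The 10 results below are the largest differences of the DOX change between low CDKN1A barcodes and the other deep barcodes, each by the edgeR interaction term, among genes with a mean of at least 20 CPM. The barcodes were split on CDKN1A, and the part of that split in these differences was not tested.

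Positive differences were 0.86 for INSIG1, 0.86 for PPP2R3A, 0.75 for APOLD1, 0.70 for HIST1H1E and 0.68 for RMRP. APOLD1, an endothelial stress gene, had 21.1 and 22.8 CPM in DOX and 17.3 and 19.8 CPM in untreated in low CDKN1A barcodes, and 13.7 and 14.1 CPM against 17.9 and 22.3 CPM in the others. HIST1H1E, a linker histone, had 44.4 and 52.2 CPM against 49.2 and 62.6 CPM, and 36.6 and 43.6 CPM against 65.7 and 86.1 CPM in the others. RMRP, the RNA of an endoribonuclease, had 40.4 and 43.8 CPM against 21.3 and 38.5 CPM, so the untreated libraries were far apart. PPP2R3A rested on 1 barcode of DOX replicate 1, which held 63.2% of its UMIs there.

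Negative differences were -2.36 for CPA4, -1.27 for KLK6, -1.26 for FTH1, -1.21 for KRT7 and -1.15 for GSN. KLK6, a kallikrein protease, had 49.1 and 41.7 CPM in DOX and 19.1 and 16.8 CPM in untreated in low CDKN1A barcodes, and 149 and 117 CPM against 22.4 and 21.6 CPM in the others. KRT7, a simple epithelial keratin, had 29.5 and 29.6 CPM against 17.5 and 19.3 CPM, and 85.4 and 77.2 CPM against 20.7 and 23.4 CPM in the others. GSN, the actin-severing gelsolin, had 27.1 and 25.9 CPM against 21.1 and 19.6 CPM, and 74.2 and 64.3 CPM against 23.9 and 24.3 CPM in the others. These 3 genes rose in both classes, but GSN in low CDKN1A barcodes did not pass the test in 5 of 17 alternatives, with log2 values of 0.14 to 0.73 over all of them, among them those without DOX replicate 1 and without untreated replicate 2.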

How the results depend on the processing

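In low CDKN1A barcodes, against 2154 genes that rose, 1199 rose with 0 CDKN1A UMIs, 1348 with UMIs thinned, 953 with equal phase shares, 1148 with DESeq2, 655 in barcodes of 20000 to under 60000 UMIs, 1392 from 60000 UMIs on, and 1087 to 1608 with 1 library left out. Against 2021 that fell, the counts were 1278 with library totals, 3116 with no filter, 1190 with 0 CDKN1A UMIs, 3481 with the limit set after thinning, 1128 with equal phase shares, 779 in the shallower barcodes, 3534 with a mitochondrial limit of 20% and 979 to 2318 with 1 library left out. Positive differences, 1530 in all, numbered 807 with 0 CDKN1A UMIs, 2546 with the limit after thinning, 940 with UMIs thinned, 10 with equal phase shares and 312 to 2644 with 1 library left out. Negative ones, 1651 in all, numbered 727, 2522, 580 and 46 under those settings and 400 to 2706 with 1 library left out. The low shares were 52%, 60%, 91.1% and 89.7% after thinning. Some of these settings use fewer barcodes, and the cause was not tested otherwise. In the other deep barcodes, where only other size factors, no filter, the replicate block and the left-out libraries were run, no count moved by over 1.5 times. U-ISGF3 genes that rose numbered 20 to 26, with medians of 2.34 to 2.86.

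Signs turned for HIST1H2AC in low CDKN1A barcodes (-0.23, shallower barcodes) and for these differences. With equal phase shares they were -0.0421 for S phase and -0.0183 for G2/M medians, 0.25 for GDF15, -0.13 for MKI67, -0.0490 for PCNA, 0.60 for IGFBP3, -0.10 for RRM2, -0.0834 for TACC3, -0.0716 for CDCA3, -0.15 for TOP2A, 0.15 for NEAT1 and 0.0413 for MALAT1. With the limit after thinning they were 0.34 for GDF15, 0.0838 for NEAT1 and 0.27 for SP110. They were 0.0274 for GDF15 with UMIs thinned, -0.26 for PPP2R3A with 0 CDKN1A UMIs and -0.13 to 0.14 for ISG15 with 1 library left out, the lowest without DOX replicate 1.

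A replicate block gave 2341 higher and 2688 lower genes in low CDKN1A barcodes. Same-numbered libraries deviated together with a correlation of 0.05. So few libraries cannot tell whether those of the same number share a culture or a batch. With 2 libraries a condition and 600 DOX barcodes, genes of few UMIs stayed below the filter.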

Other observations

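A few genes in the low CDKN1A barcodes of the DOX libraries came almost entirely from 1 barcode. MUC13, a transmembrane mucin, had 44 and 1 UMIs in DOX and 13 and 12 UMIs in untreated, and 34 of the 44 were in 1 barcode. IRF8, a transcription factor of the interferon gamma response, had 0 and 12 UMIs in DOX and 0 and 0 UMIs in untreated, and 11 of the 12 were in 1 barcode. IFNL1, a type III interferon, had 14 and 1 UMIs in DOX and 0 and 0 UMIs in untreated, and the 14 were in 1 barcode. Sums over a class of 307 and 293 barcodes give such a barcode much weight.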
